A study of Mus musculus with 24 samples.

Results

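The renin-angiotensin system was examined through 8 genes: Ren1, Agt, Ace, Agtr1a, Mas1, Enpep, Mme and Atp6ap2. They were chosen by name for their place in the pathway, with earlier results of these data known. All 8 were among the 16092 genes tested of 55335 in each file. RNA-Seq was done on whole kidneys of 24 adult C57BL/6J mice, 6 in each group. The cKOm and cKOf groups were males and females of genotype Pex5lox/lox/Pax8-rtTA/LC1, in which doxycycline (DOX) removes Pex5, the import receptor for peroxisomal matrix proteins, from renal tubule cells. The Ctrlm and Ctrlf groups were Pex5lox/lox littermates, which carry the floxed alleles without the inducible Cre and received the same DOX. DOX was given for 2 weeks from 8 weeks of age, and kidneys were taken 4 weeks after it ended, at ZT9 per the extraction notes, whereas the growth notes place the experiments at ZT3. Because Pax8-rtTA acts in the tubule, the renin-producing cells of the afferent arteriole, the vessels and the glomeruli were not targeted.

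Renin, made by juxtaglomerular cells, cuts angiotensinogen to angiotensin I, and angiotensin-converting enzyme turns that into angiotensin II, which raises blood pressure and salt retention through the AT1 receptor. Aminopeptidase A and neprilysin break angiotensins down into shorter peptides, among them angiotensin-(1-7), a ligand of the Mas receptor. In the kidney the cascade is local as well as systemic, since the proximal tubule holds angiotensinogen, the converting enzyme, the AT1 receptor and the peptidases on or near its brush border. A change in a bulk kidney sample can reflect fewer cells of a type or less RNA per cell, and these cannot be told apart here.

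In males, 4 of the 8 genes passed the test between cKOm and Ctrlm. Ace, Agtr1a and Mas1 were lower and Mme was higher in cKOm mice, where 9.05% of all tested genes passed in either direction, 4.9% lower and 4.14% higher. In females, none of the 8 passed between cKOf and Ctrlf, where 0.851% of all tested genes did, 0.391% higher and 0.46% lower. The count at an unadjusted p under 0.05 was also 0 of 8 in females, against 6.73% of all tested genes, and limma-voom and DESeq2 each called 0. In the genotype by sex interaction, the male log2 fold change minus the female one, Ace passed with a negative value, where 2.31% of all tested genes passed and 1.49% did so with a negative (lower) value. The median log2 fold change of the 8 genes was 0.055 in males, where the median of all genes was 0.015, and −0.046 in females, where it was 0.0019, so the list had no common direction. Levels are given in CPM, reads on a gene relative to the library's reads after TMM scaling. A gene was called when its adjusted p in edgeR's quasi-likelihood test was under 0.05.

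**Figure D1:**
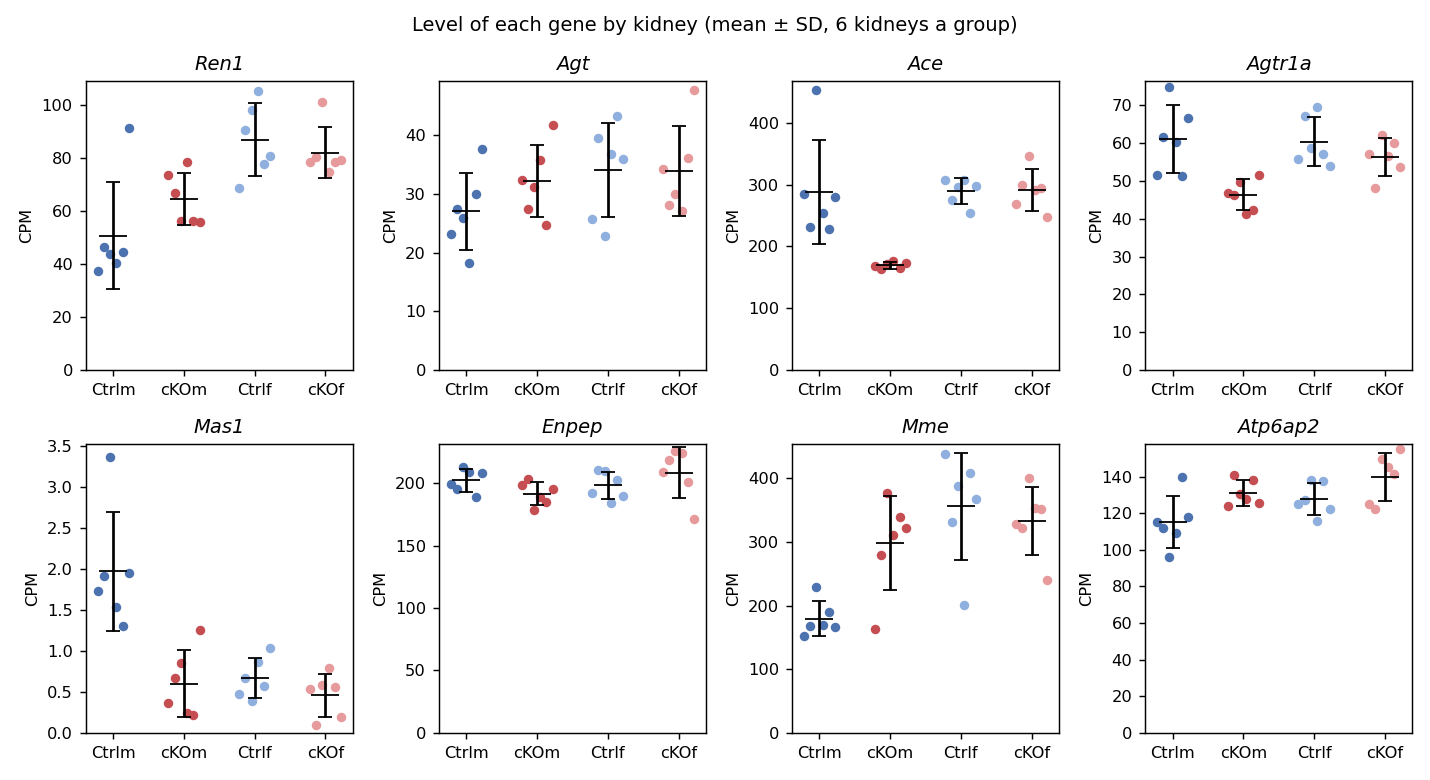
Level of the 8 genes in each of the 24 kidneys, in CPM on axes that start at 0, with each dot a kidney and the bars the mean ± SD of 6 kidneys. The 6 cKOm kidneys lie between 163 and 176 CPM for Ace, under all kidneys of the other groups, and the 6 Ctrlm kidneys are the highest for Mas1.

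The check of the labels came first. Pex5 itself stood at 49.1 to 62.8 CPM in Ctrlm kidneys and at 41.8 to 47.3 CPM in cKOm kidneys, with no overlap (log2 fold change −0.31, SE 0.08, adjusted p = 0.0219). In females it stood at 43.0 to 61.7 CPM in Ctrlf and 38.0 to 48.5 CPM in cKOf (−0.21, SE 0.08, adjusted p = 0.177), and the groups overlapped. Reads from exons that remain after excision, and from cells without Cre, count toward these values. The paper reported some full-length Pex5 mRNA and PEX5 protein left in cKOf kidneys and proposes incomplete excision there. Sex and the extent of excision therefore cannot be told apart where male and female genotype differences are compared. Between 19376152 and 28470831 reads fell on genes per kidney. In 4 Ctrlm kidneys (replicates 1 to 4) and in cKOm replicate 4, Alb, the liver's albumin gene, stood at 224 to 662 CPM, against 15.1 to 60.2 CPM in the other 19 kidneys. The summed level of 14 hepatocyte genes, none of them at 0 in any group, was 129 to 1032 CPM in Ctrlm, 136 to 575 in cKOm, 89.7 to 140.4 in Ctrlf and 64.3 to 147 in cKOf. Leaving out those 5 kidneys leaves 2 Ctrlm and 5 cKOm mice, and calls that were lost that way are named below.

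The 3 members past the threshold in males that had a promoter entry in the RefSeq table are shown by the sequence before their start, because their RNA level moved with genotype. Each run ends before the first annotated exon base it meets and is given 5′ to 3′ on the gene's strand, in GRCm38.p6. Ace covers chr11:105967698-105967944 on the plus strand, Mas1 covers chr17:12868144-12868393 on the minus strand, and Mme covers chr3:63294961-63295210 on the plus strand. The Mme run is the most upstream RefSeq entry and lies inside the gene as GENCODE draws it, whose first base is 63241537. Capitals mark a match, on either strand, to 1 of 5 short motifs. The motifs were TGTTCT (a steroid receptor half-site), AGGTCA (a nuclear receptor half-site), TGACG (a cyclic AMP element half-site), GGGCGG (called the GC box) and TATAAA (known as the TATA box).
Ace: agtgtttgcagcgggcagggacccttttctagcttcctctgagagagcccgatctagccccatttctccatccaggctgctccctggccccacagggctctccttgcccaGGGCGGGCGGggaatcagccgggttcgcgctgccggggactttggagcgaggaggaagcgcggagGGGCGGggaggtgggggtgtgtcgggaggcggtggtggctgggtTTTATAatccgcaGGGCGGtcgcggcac
Mas1: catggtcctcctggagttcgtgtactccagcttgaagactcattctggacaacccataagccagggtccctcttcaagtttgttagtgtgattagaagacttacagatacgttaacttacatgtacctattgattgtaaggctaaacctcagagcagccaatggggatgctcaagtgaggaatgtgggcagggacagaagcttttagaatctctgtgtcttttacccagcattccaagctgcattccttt
Mme: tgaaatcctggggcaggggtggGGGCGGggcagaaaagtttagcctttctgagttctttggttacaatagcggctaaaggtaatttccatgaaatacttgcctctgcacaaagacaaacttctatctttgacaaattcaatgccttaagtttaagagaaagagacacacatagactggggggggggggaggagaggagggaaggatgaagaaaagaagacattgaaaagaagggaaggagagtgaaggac
The Ace run held 4 GC boxes, 2 of which overlap each other, and 1 TATA box match. That match reads TTTATA, so TATAAA lies on the strand opposite to the gene. Of 32851 promoters in windows of that length, 32.3% held a GC box and 12.3% a TATA box. The Mme run held 1 GC box, as did 32.7% of windows of its length, and the Mas1 run held none of the 5 motifs. None of the 3 runs held the other 3 motifs. Of all windows of 250 bases, 16.1% held the steroid receptor half-site, 14.02% the nuclear receptor half-site and 17.8% the cyclic AMP half-site. A match is only a run of letters and was not tested for binding.

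Ren1 encodes renin, the aspartyl protease that starts the cascade, and lies on chromosome 1 at positions 133350510 to 133360325 of GRCm38. Its lowest, median and highest levels were 37.3, 44.2 and 91.3 CPM in Ctrlm and 55.8, 61.5 and 78.5 CPM in cKOm. They were 68.6, 85.6 and 105 CPM in Ctrlf and 74.5, 78.9 and 101 CPM in cKOf. Every Ctrlm kidney but replicate 6 lay at or under 46.3 CPM and thus under all 18 kidneys of the other groups, while replicate 6 lay among the Ctrlf values. The order of the group medians was Ctrlm, cKOm, cKOf and Ctrlf, and of the 4 pairs tested only Ctrlm and Ctrlf, its ends, differed past the threshold. In control mice Ren1 was 1.72-fold lower in males (log2 fold change −0.78, SE 0.16, edgeR adjusted p = 0.00121, exact permutation p = 0.0108). Between genotypes the log2 fold change was 0.35 in males (SE 0.16, 95% interval 0.019 to 0.68, adjusted p = 0.275) and −0.083 in females (SE 0.16, −0.41 to 0.24, adjusted p = 0.873). Between cKOm and cKOf it was −0.35 (SE 0.16, adjusted p = 0.175).

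The male value depended on which kidneys were used. Without Ctrlm replicate 6 the log2 fold change in males was 0.57 with adjusted p = 0.00172, and the interaction with sex was 0.66 with adjusted p = 0.0150, both past the threshold. Without the 5 kidneys rich in Alb the male value was −0.17 (adjusted p = 0.785), with Ctrlm holding replicate 6 and 1 other kidney. The sex difference in controls was −0.33 (adjusted p = 0.341) without them and −0.60 (adjusted p = 0.0554) with the hepatocyte score as a covariate. Of 6 juxtaglomerular markers other than Ren1, 5 were tested and none passed between genotypes in either sex. Akr1b7, a reductase of renin cells, gave a log2 fold change of 0.71 in males with adjusted p = 0.0695 and was lower in Ctrlm than Ctrlf (−0.67, adjusted p = 0.0472). The summed level of the 6 was 130.5 to 184 CPM in Ctrlm, 163 to 171 in cKOm, 147 to 182 in Ctrlf and 169 to 192 in cKOf. None of 6 smooth muscle markers passed between genotypes. Of all tested genes, 9.05% passed between genotypes in males and 0.851% in females. Markers of the adrenal cortex, a neighbouring organ, summed to at most 3.06 CPM, with the aldosterone synthase gene Cyp11b2 at 0 in all groups. The part of these cells in the Ren1 values was not tested.

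Agt encodes angiotensinogen, the substrate of renin, made by the liver and by the proximal tubule. Its lowest, median and highest levels were 18.2, 26.7 and 37.6 CPM in Ctrlm, 24.7, 31.7 and 41.8 in cKOm, 22.8, 36.3 and 43.2 in Ctrlf, and 27.1, 32.0 and 47.7 in cKOf. All groups overlapped, and no comparison passed. The log2 fold change was 0.25 in males (SE 0.17, 95% interval −0.099 to 0.60, adjusted p = 0.527) and −0.0081 in females (SE 0.17, −0.36 to 0.34, adjusted p = 0.991). The Ctrlm kidneys rich in Alb stood at 18.2 to 27.4 CPM and the remaining pair at 30.0 and 37.6 CPM. In cKOm the kidney rich in Alb, replicate 4, stood at 35.7 CPM, above the group's median. Without the 5 kidneys rich in Alb the male log2 fold change was −0.14 (adjusted p = 0.875), and the part of liver transcripts in the Agt values was not tested.

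Ace encodes angiotensin-converting enzyme, on chromosome 11 at positions 105967945 to 105989964 of GRCm38, and had the smallest adjusted p of the 8 genes between cKOm and Ctrlm. Its upstream run held the GC boxes and the opposite-strand TATA box match given above. In Ctrlm and cKOm the lowest, median and highest levels were 229, 267 and 453 CPM and 163, 169.6 and 176 CPM. They were 255, 296 and 308 CPM in Ctrlf and 247, 293 and 347 CPM in cKOf. Every cKOm kidney lay under every kidney of the other 3 groups, and those 3 groups overlapped. The spread within cKOm was narrow, at 169 ± 5.04 CPM, against 288 ± 84.0 in Ctrlm, 289.6 ± 20.7 in Ctrlf and 291 ± 33.6 in cKOf (mean ± SD, n = 6). Ace was 1.70-fold lower in cKOm than in Ctrlm (log2 fold change −0.77, SE 0.12, 95% interval −1.01 to −0.52, edgeR adjusted p = 8.62e-05). The exact permutation p was 0.00216, the smallest that 6 against 6 allows. In females the log2 fold change was 0.0083 (SE 0.12, −0.23 to 0.25, adjusted p = 0.986). The interaction with sex was −0.78 (SE 0.17, adjusted p = 0.00801). Ace was also 1.72-fold lower in cKOm than in cKOf (−0.78, SE 0.12, adjusted p = 2.51e-05), while Ctrlm and Ctrlf gave −0.0059 (SE 0.12, adjusted p = 0.984).

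Without the 5 kidneys rich in Alb the male log2 fold change of Ace was −0.63 (adjusted p = 0.00188). Ctrlm replicates 5 and 6, with 24.7 and 15.1 CPM of Alb, stood at 229 and 279 CPM of Ace, above all 6 cKOm kidneys. Over the 22 alternatives the male log2 fold change ranged from −0.83 to −0.59 and its adjusted p from 5.93e-09 to 0.00423. Ctrlm replicate 3 was the highest Ace kidney of all, at 453 CPM, and without it the fold change was the −0.59 of that range. Of 6 endothelial markers, none passed between genotypes in males, with a summed level of 337 to 433 CPM in Ctrlm and 334 to 403 in cKOm. Of 10 proximal tubule markers, 5 passed as lower in cKOm mice and none as higher, against 4.9% and 4.14% of all tested genes. By sign alone, 7 had a log2 fold change below 0 and 3 above it, up to 0.63. Slc5a12, for example, had a mean of 320 CPM in Ctrlm and 495 CPM in cKOm. The summed level of the 10 proximal tubule markers was 10883 to 12185 CPM in Ctrlm and 8879 to 9709.8 in cKOm. All 5 markers of its last segment, S3, 1 of which (Slc7a13) is also among those 10, were lower in cKOm mice, by a median log2 fold change of −1.19. Acy3, an aminoacylase, fell by 1.62 on the log2 scale, and Atp11a, a phospholipid flippase, fell by 1.19. The summed S3 level was 3804 to 5878 CPM in Ctrlm, 1441 to 2135 in cKOm, 1228 to 1544 in Ctrlf and 1153 to 1459.9 in cKOf. The S3 sums of Ctrlf and cKOm overlapped and their Ace levels did not. All 5 S3 markers also passed between control sexes, 4 higher and 1 lower in Ctrlm, where 15.7% of all tested genes passed. The sums of a male and a female group therefore cannot be read as amounts of S3 cells. The part of the S3 markers in the Ace values was not tested. An antisense gene, Gm11651, overlaps Ace exons and stood at no more than 0.629 CPM in any kidney.

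Agtr1a encodes the AT1a receptor, the main angiotensin II receptor of the mouse kidney. From lowest through median to highest it stood at 51.3, 60.9 and 74.7 CPM in Ctrlm and 41.2, 46.5 and 51.6 CPM in cKOm. In females it stood at 53.9, 57.9 and 69.4 CPM in Ctrlf and 48.0, 56.8 and 62.2 CPM in cKOf. The male groups met only at their edges, with cKOm replicate 6 just above Ctrlm replicates 1 and 5. Agtr1a was 1.32-fold lower in cKOm (log2 fold change −0.40, SE 0.09, 95% interval −0.59 to −0.21, adjusted p = 0.00849). In females the log2 fold change was −0.10 (SE 0.09, −0.29 to 0.088, adjusted p = 0.675), and the interaction was −0.29 (SE 0.13, adjusted p = 0.317). The male call was lost with the hepatocyte score as a covariate (−0.40, adjusted p = 0.0521) and without the 5 kidneys rich in Alb (−0.35, adjusted p = 0.171). Agtr1a was also lower in cKOm than in cKOf (−0.28, SE 0.09, adjusted p = 0.0461), a call that 14 of 22 alternatives lost, among them that without those 5 kidneys (−0.25, adjusted p = 0.0890). Of 6 mesangial and stromal markers, cells that also hold the receptor, none passed between genotypes in males, where 9.05% of all tested genes did. Their summed level was 171 to 261 CPM in Ctrlm and 175 to 204 in cKOm, and its part in the Agtr1a values was not tested. The genes of the AT1b and AT2 receptors, Agtr1b and Agtr2, were too low to test, with at most 4 and 5 counts in any kidney.

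Mas1 encodes the Mas receptor for angiotensin-(1-7), and was the lowest of the 8 genes. Levels ran from lowest over median to highest at 1.30, 1.82 and 3.36 CPM in Ctrlm and 0.223, 0.518 and 1.25 CPM in cKOm. They were 0.387, 0.619 and 1.04 CPM in Ctrlf and 0.0934, 0.547 and 0.786 CPM in cKOf. These levels rest on 25 to 68 counts per kidney in Ctrlm, 5 to 32 in cKOm, 8 to 24 in Ctrlf and 2 to 15 in cKOf. Every Ctrlm kidney lay above every kidney of the other 3 groups, which overlapped among themselves. Mas1 was 3.23-fold lower in cKOm than in Ctrlm (log2 fold change −1.69, SE 0.42, 95% interval −2.56 to −0.82, adjusted p = 0.0150) and 2.93-fold higher in Ctrlm than in Ctrlf (1.55, SE 0.42, adjusted p = 0.0129). Both comparisons use the same 6 Ctrlm kidneys. In females the genotype difference was −0.54 (SE 0.44, −1.45 to 0.37, adjusted p = 0.632), and the interaction was −1.15 (SE 0.61, adjusted p = 0.426). The male call was lost without Ctrlm replicate 3, the kidney at 3.36 CPM (−1.47, adjusted p = 0.0538), with the hepatocyte score as a covariate (−1.82, adjusted p = 0.0700) and without the 5 kidneys rich in Alb (−1.29, adjusted p = 0.360). The sex call was lost with the score (1.70, adjusted p = 0.0707) and without those kidneys (1.30, adjusted p = 0.194). Ctrlm replicates 5 and 6, low in Alb, stood at 1.30 and 1.95 CPM, above all cKOm kidneys. Airn, an unspliced RNA that runs across Mas1 on the opposite strand, stood at 1.26 to 7.61 CPM and did not pass in males (−0.19, SE 0.29, adjusted p = 0.830). The annotated exons of Airn and Mas1 do not overlap. The strand setting of the counting is not given in the sources used here, so reads of unspliced Airn that fall within Mas1 exons cannot be told apart from Mas1 reads. Of 6 androgen-responsive kidney genes, 5 were lower in cKOm, Gusb being the other, and all 6 were higher in Ctrlm than in Ctrlf. Of all tested genes, 4.9% were lower in cKOm and 8.17% were higher in Ctrlm than in Ctrlf. Kap, an androgen-regulated protein of the proximal tubule, fell by 1.47 on the log2 scale in cKOm mice. The list summed to 18039 to 37889.9 CPM in Ctrlm, 6549.5 to 10138 in cKOm, 3586 to 6402 in Ctrlf and 2639 to 4832 in cKOf, and its relation to Mas1 was not tested.

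Enpep encodes aminopeptidase A, which trims angiotensin II to angiotensin III. The lowest, median and highest values were 189, 204 and 213 CPM in Ctrlm, 179, 192 and 203 in cKOm, 184, 197 and 210.3 in Ctrlf, and 171, 214 and 226 in cKOf. The groups overlapped throughout, and no comparison passed. The log2 fold change was −0.078 in males (SE 0.07, 95% interval −0.22 to 0.060, adjusted p = 0.650) and 0.072 in females (SE 0.07, −0.066 to 0.21, adjusted p = 0.684). These were the narrowest intervals of the 8 genes in both comparisons.

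Mme encodes neprilysin, an endopeptidase of the brush border and of podocytes that forms angiotensin-(1-7) from angiotensin I and also degrades bradykinin and natriuretic peptides. Its lowest, median and highest levels were 152, 169 and 229.6 CPM in Ctrlm and 163, 316 and 377 CPM in cKOm. They were 201, 378 and 438 CPM in Ctrlf and 239.7, 339.7 and 400.0 CPM in cKOf. Of the 6 cKOm kidneys, 5 lay above all Ctrlm kidneys and replicate 1 lay among them. Likewise 5 of the 6 Ctrlf kidneys lay above all Ctrlm kidneys, with replicate 4 among them. Mme was 1.66-fold higher in cKOm than in Ctrlm (log2 fold change 0.74, SE 0.17, 95% interval 0.39 to 1.08, adjusted p = 0.00726) and 1.99-fold lower in Ctrlm than in Ctrlf (−0.99, SE 0.17, adjusted p = 0.000126). These comparisons share the Ctrlm kidneys. In females the log2 fold change was −0.099 (SE 0.17, −0.44 to 0.25, adjusted p = 0.852), and cKOm and cKOf differed by −0.16 (SE 0.17, adjusted p = 0.630). The interaction was 0.83 (SE 0.24, adjusted p = 0.0617), and it passed in DESeq2 (adjusted p = 0.0184) and without cKOm replicate 1 (0.96, adjusted p = 0.00836), Ctrlf replicate 4 (0.94, adjusted p = 0.0115) or Ctrlm replicate 3 (0.92, adjusted p = 0.0426).

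The male call for Mme was lost with the hepatocyte score as a covariate (0.67, adjusted p = 0.0777) and without the 5 kidneys rich in Alb (0.69, adjusted p = 0.233). None of 6 podocyte markers passed between genotypes, where 9.05% of all tested genes did in males and 0.851% in females. Of the 6, 4 were lower in Ctrlm than in Ctrlf, against 7.48% of all tested genes. Nphs1, the nephrin gene of the slit diaphragm, fell by 0.58 on the log2 scale in that comparison. The podocyte sum was 438 to 558 CPM in Ctrlm, 526.2 to 562 in cKOm, 532 to 687 in Ctrlf and 522 to 726 in cKOf. Neprilysin is also found on leukocytes, of which 7 markers summed to 41.1 to 86.6 CPM in Ctrlm and 32.6 to 52.6 in cKOm, and none of the 6 tested passed. The part of these cells in the Mme values was not tested.

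Atp6ap2 encodes the (pro)renin receptor, which is also an accessory subunit of the vacuolar H+-ATPase. The lowest, median and highest values were 96.2, 114 and 139.85 CPM in Ctrlm, 124, 129 and 141 in cKOm, 116, 126 and 138 in Ctrlf, and 122, 143 and 155 in cKOf. All groups overlapped. The log2 fold change was 0.19 in males (SE 0.08, 95% interval 0.024 to 0.35, adjusted p = 0.221) and 0.13 in females (SE 0.08, −0.034 to 0.29, adjusted p = 0.469), and neither passed. Without the 5 kidneys rich in Alb the male value was −0.0070 (adjusted p = 0.990). Of 11 genes for core subunits of the same pump, 1 was lower in cKOm mice and none higher, where 9.05% of all tested genes passed. That gene was Atp6v1b2, the widely used B subunit (−0.37, adjusted p = 0.0181). Of 6 intercalated cell genes, cells rich in the pump, 2 were higher in cKOm and 1 was lower, against 4.14% and 4.9% of all tested genes. Atp6v1b1, the B subunit of those cells, gave 0.30 (adjusted p = 0.0136), Slc26a4, the anion exchanger pendrin, gave 0.47 (adjusted p = 0.00686), and Slc4a1, the exchanger of the acid-secreting cells, gave −0.68 (adjusted p = 0.00259). Slc4a1 was also lower in cKOf than in Ctrlf (−0.70, adjusted p = 0.00172). The part of these cells in the Atp6ap2 values was not tested.

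**Figure D2:**
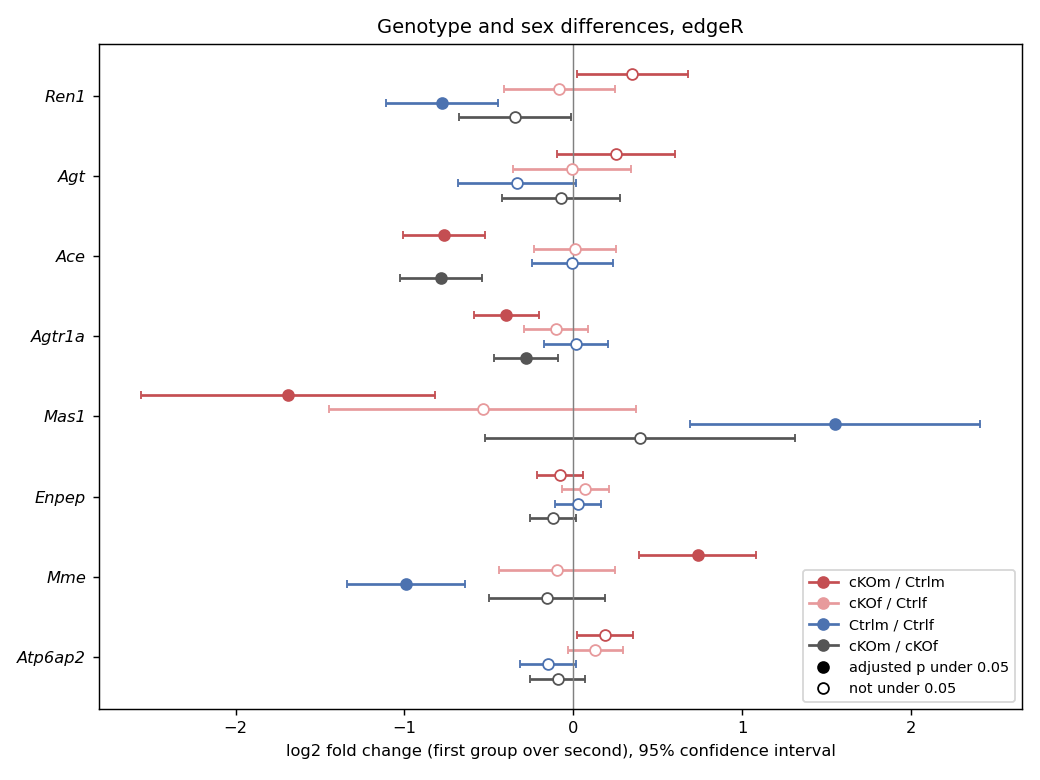
Log2 fold change of the 8 genes in 4 comparisons, with 95% confidence intervals and filled dots where the adjusted p was under 0.05. In males Ace, Agtr1a and Mas1 are filled left of 0 and Mme right of it, while no female genotype dot is filled.

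Between sexes, 3 of the 8 genes differed in control mice, where 15.7% of all tested genes did. Ren1 and Mme were lower (7.48% of all tested genes) and Mas1 was higher (8.17%) in Ctrlm. In cKO mice 2 differed, against 9.72% of all tested genes, and both, Ace and Agtr1a, were lower in cKOm (4.92% were lower and 4.8% higher). Groups that did not overlap gave a smaller count. Ace and Mas1 did not overlap between cKOm and Ctrlm (7.38% of all tested genes did not), Mas1 did not between Ctrlm and Ctrlf (7.35%), and Ace did not between cKOm and cKOf (6.77%). No member was without overlap between cKOf and Ctrlf (0.559%). Whether a sex difference itself changed with genotype is what the interaction tests, and Ace was the gene that passed it with all kidneys.

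Levels of different genes were compared per length of exon. Over all 24 kidneys the order was Ace (49.1 ± 12.99 CPM per kb, SD), Atp6ap2 (49.1 ± 5.29), Ren1 (42.8 ± 11.9), Enpep (42.5 ± 2.94), Mme (25.3 ± 7.90), Agtr1a (20.1 ± 3.03), Agt (16.8 ± 3.82) and Mas1 (0.352 ± 0.286). These SDs include the differences between groups. Over all kidneys the mean ± SD ranges of the first 4 overlapped, as did those of Mme, Agtr1a and Agt as neighbours, whereas Mas1 lay far under all others. In Ctrlm kidneys Ace led with 54.6 ± 15.9 CPM per kb, ahead of Atp6ap2 at 44.0 ± 5.46 and Enpep at 43.0 ± 1.97, and Ren1 stood at 30.6 ± 12.2. In cKOm kidneys Atp6ap2 led with 50.1 ± 2.61, followed by Enpep at 40.7 ± 1.95, Ren1 at 38.94 ± 5.98 and Ace at 32.0 ± 0.953. Within this group Ace lay under Atp6ap2 and Enpep by more than their spread, and Enpep and Ren1 lay under Atp6ap2 likewise. In Ctrlf kidneys Ace (54.8 ± 3.92) and Ren1 (52.4 ± 8.23) came first, followed by Atp6ap2 (48.8 ± 3.39) and Enpep (42.1 ± 2.33). Ace and Atp6ap2 each lay above Enpep by more than their spread. In cKOf kidneys the order was Ace (55.1 ± 6.36), Atp6ap2 (53.4 ± 5.08), Ren1 (49.5 ± 5.71) and Enpep (44.3 ± 4.32). RNA of renin comes from few cells and that of the brush border enzymes from many, so a bulk level is not a level per cell.

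**Figure D3:**
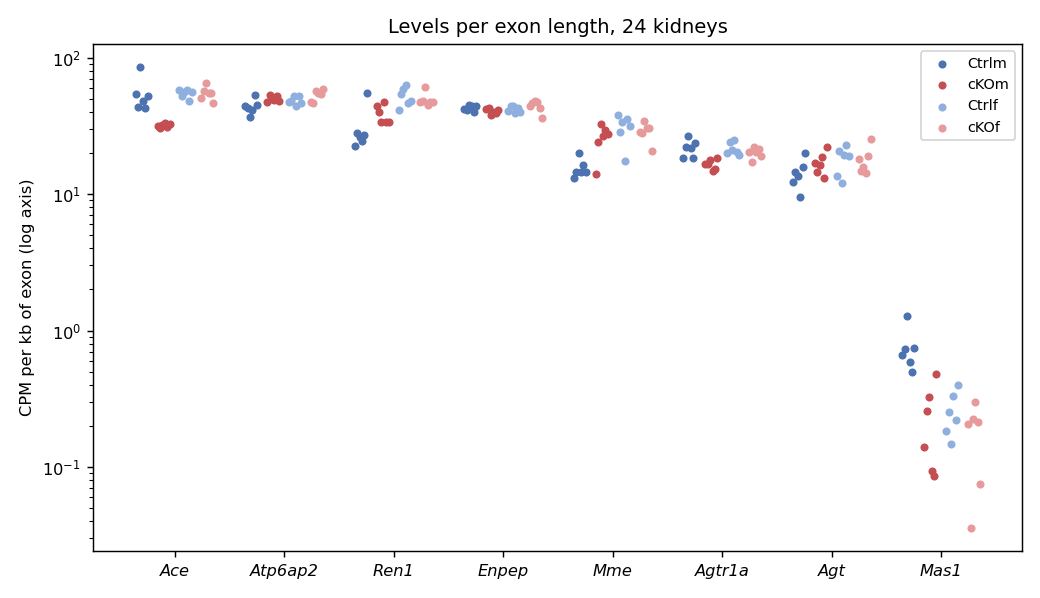
Level of the 8 genes per kb of exon on a log axis, with each dot a kidney coloured by group. Ace, Atp6ap2, Ren1 and Enpep share the top of the range, and Mas1 lies under them in every kidney, at a mean of 0.352 CPM per kb.

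Of 20 further genes of the system, 13 were tested, and in males 4 passed, 3 of them lower and 1 higher in cKOm, where 9.05% of all tested genes passed, 4.9% lower and 4.14% higher. The median log2 fold change of the 13 was −0.21, against 0.015 for all genes. In females none of the 13 passed in edgeR, where 0.851% of all tested genes did, and limma-voom and DESeq2 called 0. In that comparison 2 had an unadjusted p under 0.05 (Klk1 at 0.29 and Cltrn at −0.29), against 6.73% of all tested genes. The genes that were lower in males were Cltrn, Agtrap and Prcp. Cltrn, which encodes collectrin, which carries amino acid transporters to the brush border, was at 779.9 to 1190.1 CPM in Ctrlm and 581 to 667 CPM in cKOm, with no overlap (−0.57, SE 0.12, adjusted p = 0.00274). Agtrap encodes a protein that draws the AT1 receptor into the cell, and stood at 90.0 to 112 CPM in Ctrlm and 71.4 to 85.1 CPM in cKOm, also without overlap (−0.32, SE 0.07, adjusted p = 0.00490). Prcp, a carboxypeptidase that cuts angiotensins, was at 36.9 to 43.6 CPM in Ctrlm and 26.4 to 34.6 CPM in cKOm, without overlap (−0.34, SE 0.10, adjusted p = 0.0416). Between cKOm and Ctrlm, 7.38% of all tested genes did not overlap. In control mice all 3 were higher in males, Cltrn by 0.42, Agtrap by 0.26 and Prcp by 0.36 on the log2 scale (adjusted p = 0.0178, 0.0152 and 0.0134), a comparison that shares the Ctrlm kidneys. Of all tested genes, 8.17% were higher in Ctrlm than in Ctrlf. The male calls of Cltrn and Agtrap held in all 22 alternatives, and that of Prcp was lost in 10 of 22, 8 of them with 1 kidney left out (adjusted p up to 0.111) and 1 without the kidneys rich in Alb (−0.39, adjusted p = 0.249). The sex call of Cltrn was lost without Ctrlm replicate 2 (0.33, adjusted p = 0.0567) or 5 (0.35, adjusted p = 0.0524), with the hepatocyte score (0.40, adjusted p = 0.124) and with those groups fitted alone (0.43, adjusted p = 0.0770). That of Prcp was lost with the score (0.34, adjusted p = 0.125) and without the kidneys rich in Alb (0.41, adjusted p = 0.105). The part of the lower S3 and proximal tubule sums, given beside Ace, in these 3 genes was not tested.

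Klk1, tissue kallikrein, which releases kinins, was the gene that was higher, at 1189 to 1662 CPM in Ctrlm and 1502 to 2461 CPM in cKOm (0.50, SE 0.13, adjusted p = 0.0175). It belongs to a family of near-identical genes that can share reads, so its count is uncertain. Its call was lost without cKOm replicate 3 (0.41, adjusted p = 0.0649) and without the 5 kidneys rich in Alb (0.36, adjusted p = 0.464). Anpep, aminopeptidase N, was among the 3 highest genes of the list and gave −0.26 in males (adjusted p = 0.310). The chymase and mast cell protease genes Cma1, Mcpt4, Ctsg and Cpa3 had at most 4 counts in any kidney. Of 6 mast cell markers 3 were tested and none passed in either genotype comparison, with Fcer1a at 0 in all groups.

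Among 6 kinin genes, 5 were tested, and in males Cpn1 was higher and Kng1 lower, where 9.05% of all tested genes passed in either direction. Between control sexes 3 of the 5 passed, against 15.7% of all tested genes, and between cKO sexes 2 did, against 9.72%. The Kng1 call between control sexes was lost with the hepatocyte score (0.064, adjusted p = 0.929) and without the kidneys rich in Alb (0.78, adjusted p = 0.500). Cpn1, a carboxypeptidase that trims kinins, was at 56.9 to 69.7 CPM in Ctrlm and 77.4 to 91.1 CPM in cKOm without overlap (0.42, SE 0.10, adjusted p = 0.0107). In Ctrlf it stood at 91.6 to 141 CPM, and Ctrlm was lower (−0.92, SE 0.10, adjusted p = 1.23e-07). Kng1, a kininogen made by the liver, was at 1.66 to 19.3 CPM in Ctrlm and 0.526 to 9.43 CPM in cKOm (−2.13, SE 0.60, adjusted p = 0.0328). With the hepatocyte score as a covariate that value was −0.50 (adjusted p = 0.365), and the call was lost in 12 of 22 alternatives, 9 of them with 1 kidney left out (log2 −2.10 to −1.91) and 1 without the 5 kidneys rich in Alb (−1.06, adjusted p = 0.505). Cpn1 lost its male call without the 5 kidneys rich in Alb (0.38, adjusted p = 0.284). Kng2, the kininogen that dominated in the kidney at 276 to 307 CPM in Ctrlm and 310.0 to 353 CPM in cKOm, did not pass in males (0.19, SE 0.08, adjusted p = 0.219). Its male groups did not overlap, nor did those of Cpn1, where 7.38% of all tested genes did not. Kng2 was lower in Ctrlm than in Ctrlf (−0.59, SE 0.08, adjusted p = 8.17e-06) and lower in cKOm than in cKOf (−0.37, SE 0.08, adjusted p = 0.00236). Cpm, a membrane carboxypeptidase and the third of the highest genes, gave −0.20 in males (adjusted p = 0.606).

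All 10 genes that control renin release were tested, and none passed between genotypes in either sex by edgeR. Of all tested genes, 9.05% passed in males and 0.851% in females. In males 1 of the 10 had an unadjusted p under 0.05, against 25.1% of all tested genes, and in females 0 did, against 6.73%. That gene was Casr, the calcium-sensing receptor, at 22.8 to 69.4 CPM in Ctrlm and 62.9 to 86.2 CPM in cKOm (0.39, SE 0.17, adjusted p = 0.263). In control mice Casr (−0.57, SE 0.17, adjusted p = 0.0287) and Pde3b, a phosphodiesterase that breaks down the cyclic AMP that drives renin release (−0.58, SE 0.11, adjusted p = 0.000468), were lower in males. In cKO mice Pde3b (−0.34, SE 0.11, adjusted p = 0.0408) and Npr1, the receptor for atrial natriuretic peptide (−0.33, SE 0.09, adjusted p = 0.0155), were lower in males. Of all tested genes, 7.48% were lower in males in control mice and 4.92% in cKO mice. The macula densa genes Nos1 and Ptgs2 were low, with means of 1.40 and 1.08 CPM in Ctrlm, and gave 0.55 (SE 0.32) and 0.40 (SE 0.52) in males without passing, with a 95% interval for Ptgs2 of −0.67 to 1.46. The Casr call was lost without Ctrlf replicate 3 (−0.54, adjusted p = 0.0564), with those groups fitted alone (adjusted p = 0.0577), with the hepatocyte score (adjusted p = 0.180) and without the kidneys rich in Alb (−0.82, adjusted p = 0.0660). The Pde3b call in control mice was lost with the score (−0.42, adjusted p = 0.0611) and without those kidneys (−0.39, adjusted p = 0.124), and its call in cKO mice was lost in 12 of 22 alternatives, 8 of them with 1 kidney left out and 1 without those kidneys (−0.34, adjusted p = 0.0608). The Npr1 call was lost without those kidneys (−0.32, adjusted p = 0.0584).

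**Figure D4:**
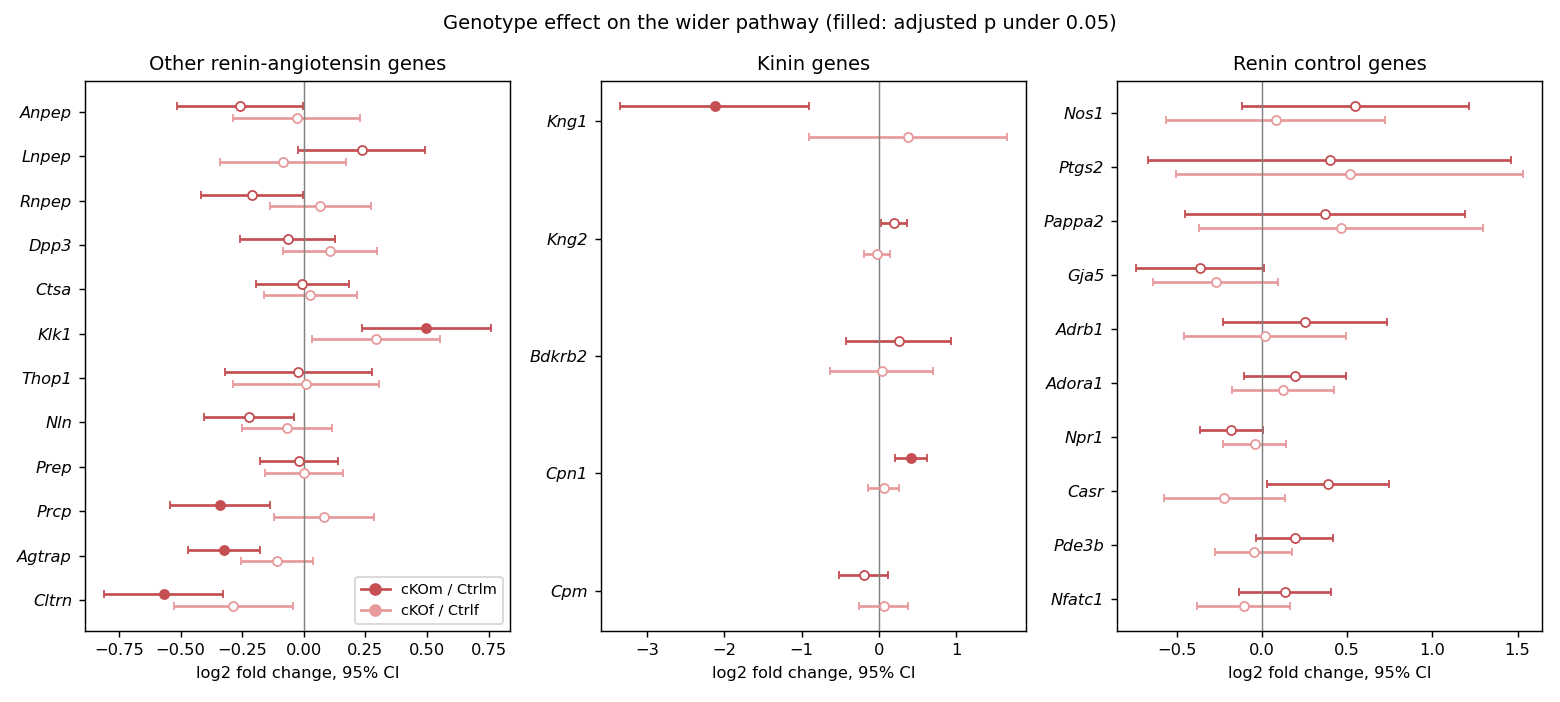
Log2 fold change with 95% confidence interval for tested genes of 3 wider lists, cKOm over Ctrlm in dark and cKOf over Ctrlf in light red, filled where the adjusted p was under 0.05. The filled dots, all in males, are Klk1 and Cpn1 right of 0 and Prcp, Agtrap, Cltrn and Kng1 left of it.

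Within groups, the 8 genes did not vary as a block. After the group means were removed, the 28 pairs of members had a median Pearson r of 0.16 over the 24 kidneys, from −0.53 for Ace with Atp6ap2 to 0.67 for Agtr1a with Mas1. The 3 genes most like each member, of 14072 with a mean of at least 1 CPM, were taken by the same measure. For Ren1 they were Gm43672 (r = 0.75), Aqp6 (0.68) and Tipin (0.68), and for Agt they were Ctsa (0.84), Yipf3 (0.83) and Aqp7 (0.81). Ctsa, cathepsin A, is itself on the list of further angiotensin-cutting enzymes. For Ace they were Dnajc1 (0.82), Gm47260 (0.75) and Wbp1l (0.73). Agtr1a was most like Accs (0.77), Trpm4 (0.76) and Sema4g (0.74), and Mas1 was most like Accs (0.69), P2ry2 (0.69) and Wdr66 (0.68). Enpep was most like Snx29 (0.86), Hgf (0.85) and Slc29a3 (0.83), those of Mme included Pign (0.76) and Lrrc31 (0.74), and Atp6ap2 was most like Grsf1 (0.80), Uchl5 (0.77) and Ccpg1 (0.77). These are descriptions over kidneys that share library depth and composition, and only 8 of the 24 genes were also among the first 3 by Spearman's rho.

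**Figure D5:**
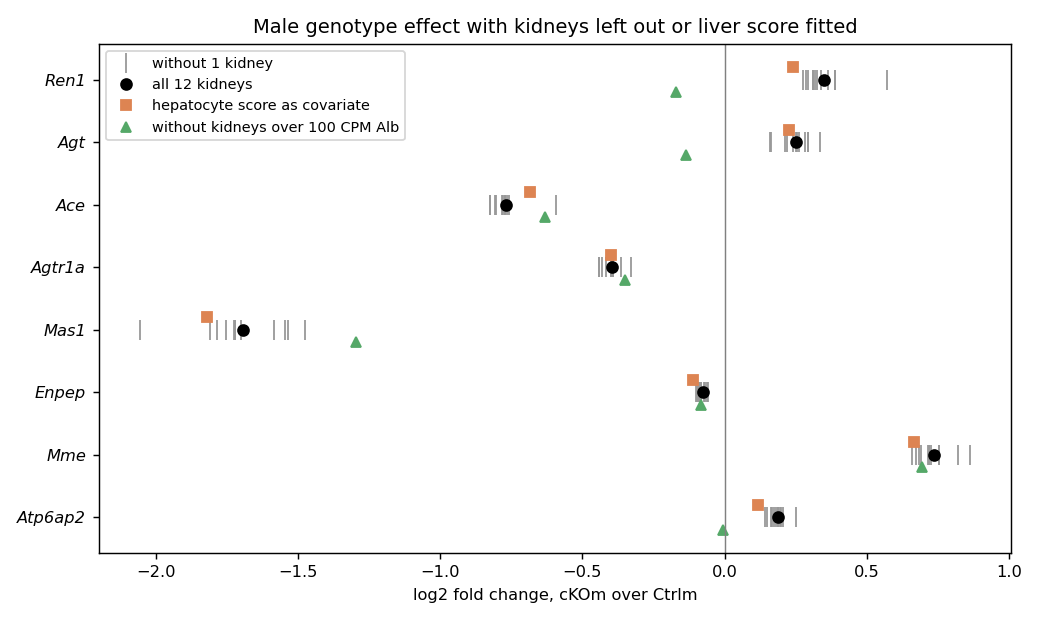
Log2 fold change between cKOm and Ctrlm for the 8 genes with all 12 kidneys (black), without each kidney in turn (grey), with the hepatocyte score fitted (orange) and without the 5 kidneys over 100 CPM of Alb (green). Ace stays between −0.83 and −0.59, while Ren1 runs from −0.17 to 0.57.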

How the data were processed

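RNA-Seq libraries were made from total RNA of whole kidneys with stranded mRNA reagents. Per the labels the authors used cutadapt 1.8, STAR 2.5.3a, HTSeq 0.9.1 and build GRCm38. The strand setting of the counting is not given in the sources used here. The authors deposited raw counts per gene, 1 file per kidney with 55335 genes, without normalization. Groups came from the labels, with 6 mice each.

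The 16092 genes reaching 1 CPM in any kidney were kept, scaled by TMM and fitted by edgeR 4.0.16 (R 4.3.3, quasi-likelihood) in a model of the 4 groups. P values were adjusted by Benjamini-Hochberg over both genotype tests, over the interaction and over both sex tests, with the threshold at 0.05. Single genes also had a two-sided exact permutation test of mean log2 CPM (prior count 2) over 924 arrangements of 6 against 6. Intervals are 95% and use the fit's SE. Folds are linear values of fitted log2 changes. Alternatives were limma-voom 3.58.1, DESeq2 1.42.0, other scaling and filters, fits of the compared groups only, adjustment within a comparison, the replicate number as a block, a hepatocyte score (mean log2 CPM of its markers) as covariate and leaving out each kidney. Leaving out kidneys with over 100 CPM of Alb was added after the data were seen. The fit was tested on simulated data.

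Depth was 19376152 to 28470831 reads on genes. Replicates of a group differed by more than counting noise (chi-square per degree of freedom 9.83 to 99.2 over 60 pairs). Same-numbered kidneys were separate mice (r of their deviations −0.20 to 0.12 over 36 pairs) and were not paired. Named genes were the 8 members, list genes past the threshold in any comparison or among the 3 highest of their list, markers beside the member they bear on, and the 3 genes most like each member, some of which are not reported here. The members and lists were chosen with earlier results of these data known. Names and exon lengths came from GENCODE M21, and promoter sequences from RefSeq on GRCm38.p6.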

Additional observations from a re-analysis of the deposited data

Results flagged for a closer look

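Among 14 genes and 4 groups (56 sets of 6 kidneys), 9 sets held a kidney far from the other 5, by a gap over 0.625 of the group's range. Chance gives such a gap in about 1 of 20 sets if the values are normally distributed. That was not checked for these CPM values, which were not log-transformed, and all 9 gaps lay at the highest kidney. Ren1 stood at 91.3 CPM in Ctrlm replicate 6, where the next kidney was at 46.3 CPM, and at 101 CPM in cKOf replicate 3, where the next was at 80.4 CPM. Ace stood at 453 CPM in Ctrlm replicate 3, and the next kidney of that group at 285 CPM. The same replicate held the highest Mas1 level, 3.36 CPM, with the next at 1.95 CPM. Klk1 was at 2249 CPM in Ctrlf replicate 4 and 2986 CPM in cKOf replicate 6, with the next kidneys at 1692 and 1959 CPM. Agtrap was at 96.1 CPM in Ctrlf replicate 4, the next at 82.3 CPM. Kng1 was at 9.43 CPM in cKOm replicate 4 and 3.67 CPM in Ctrlf replicate 2, with the next at 2.01 and 1.60 CPM.

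For Ace the change with genotype differed between males and females, by −0.78 on the log2 scale (SE 0.17, edgeR adjusted p = 0.00801). It was lower in 6 of 6 cKOm kidneys than in any Ctrlm kidney. The paper proposes incomplete excision in cKOf mice, so sex and extent of excision cannot be told apart in this difference.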

How the results depend on the processing

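The number of members past the threshold in males, 4, was 1 (Ace) with the hepatocyte score as covariate and 1 (Ace) without the kidneys rich in Alb, and 3 to 5 with each kidney left out. In females it was 0 in all 22 alternatives. In the interaction it was 2 in DESeq2 and 1 to 2 with each kidney left out. Between Ctrlm and Ctrlf, 3 became 1 (Mme) with the score and 1 without those kidneys. Between cKOm and cKOf, 2 became 1 (Ace) in limma-voom, with every gene with a count, with adjustment within the comparison, with the replicate block, with the score and without those kidneys, and was 1 to 2 with each kidney left out. Of the other renin-angiotensin genes in males, 4 became 2 without those kidneys and ranged from 2 to 4 with each kidney left out. Only 8 of 24 likeness genes were kept by Spearman's rho.

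Of 960 single-gene alternatives for the members, 890 kept direction and side of the threshold, 25 lost and 7 gained it. In 38 the sign turned, all for values that had not passed. Without the kidneys rich in Alb these were, on the log2 scale, Ren1 −0.17 in males and −0.083 in the interaction, Agt −0.14, −0.12 in the interaction and 0.012 between control sexes, Agtr1a −0.011 between control sexes, and Atp6ap2 −0.0070, −0.13 in the interaction and 0.038 between control sexes. With the score Atp6ap2 gave −0.0051 in the interaction. Ace between control sexes gave 0.016 in DESeq2 and with RLE, 0.015 with every gene, 0.0068 with the stricter filter and 0.0072 with these groups alone. With each kidney left out, Agt ran from −0.13 to 0.076 in females and −0.16 to 0.050 between cKO sexes, Ace from −0.048 to 0.051 in females and −0.18 to 0.053 between control sexes, and Agtr1a from −0.051 to 0.077 between control sexes. The cause was not tested.

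The replicate block ended the Agtr1a call between cKOm and cKOf (adjusted p = 0.0579) and changed no other member's call. Ren1 passed between cKOm and cKOf when those groups were fitted alone (adjusted p = 0.0308). Counts of 2 to 68 per kidney limit Mas1. The spread was taken between mice.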
